A study of Equus caballus with 34 samples.

Results

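Fibroblast growth factors (FGFs) are secreted or local signalling proteins, and 8 genes of this system were followed through the wall of the growing equine follicle: the ligands FGF1, FGF2, FGF7, FGF9 and FGF10 and the receptors FGFR1, FGFR2 and FGFR3. Every probe outside the array's controls that carried the name of 1 of these genes, or its protein name in the description, was taken, which gave 34 probes for 8 of the 12502 genes named on the array. FGFR2 had 12 probes, FGF1 had 6, FGF2 and FGF7 had 5 each, FGF10 and FGFR1 had 2 each, and FGF9 and FGFR3 had 1 each. The 12 FGFR2 probes are described in the files only as a fibroblast growth factor receptor without a number. They were given to FGFR2 because they lie on chromosome 1, where RefSeq places FGFR2 alone among the receptors, beside probes of 7 of its 12 looked-for neighbours.

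The study profiled RNA of mares' dominant follicles on single-colour arrays, 1 per sample. Granulosa cells (GC), which line the follicle's cavity, had 5 arrays at each of 3 stages. The stages were the early dominant follicle (ED), the late dominant one (LD) and the follicle before ovulation (PO). Theca wall (TW), the vascularised outer layer, had 5 ED, 9 LD and 5 PO arrays. The labels give no treatment, age or breed, and do not tie a GC sample to the TW of its follicle. The design text calls the samples biological replicates and places every group on every slide, but by the scanner files only 2 of the 10 slides held both layers. Levels are log2 of the signal relative to the 75th percentile of the same array, so they compare 1 probe between arrays and not 1 gene with another.

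In the ovary, FGF ligands pass between the follicle's layers. FGF7 and FGF10, made by mesenchymal cells, act through the IIIb splice form of FGFR2 on epithelial cells, as known from mouse, human and cattle. FGF2 is a growth factor for endothelial and many other cells, FGF1 binds all FGF receptors, and FGF9 prefers the IIIc forms. The receptors are tyrosine kinases that need heparan sulfate to hold their ligand.

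The probe sequences below show what the values rest on, as deposited, with coordinates of the files (no source used here names the genome build). The FGFR2 and FGFR3 probes shown first lie in the kinase region, cross an exon junction and resemble each other. Capitals in the FGFR3 probe mark bases identical to the FGFR2 probe in the best ungapped alignment, 39 of 48 aligned bases (81.2%). Whether RNA of 1 receptor gave signal on the probe of another was not tested. FGFR1 also has a probe in the kinase region, called its kinase probe here, which resembles both the FGFR2 and the FGFR3 probe. The coding probes of FGF2, FGF7 and FGF10 and the FGFR2 probe that enters exon IIIb follow in lower case.
FGFR2 A_69_P005137 at chr1:10604370-10605000, plus strand: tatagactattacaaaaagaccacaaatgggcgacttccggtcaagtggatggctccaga
FGFR3 A_69_P003516 at chrUn:206268173-206268312, plus strand: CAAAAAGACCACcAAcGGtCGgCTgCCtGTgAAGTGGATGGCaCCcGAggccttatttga
FGFR2 A_69_P005183 at chr1:10574649-10575840, plus strand: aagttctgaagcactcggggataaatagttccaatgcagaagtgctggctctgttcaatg
FGF7 A_69_P005178 at chr1:137808335-137808394, minus strand: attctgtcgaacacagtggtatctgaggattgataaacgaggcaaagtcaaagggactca
FGF2 A_69_P003592 at chr2:90748063-90748122, minus strand: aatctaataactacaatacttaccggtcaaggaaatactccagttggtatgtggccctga
FGF10 A_69_P028701 at chr21:18399217-18399276, plus strand: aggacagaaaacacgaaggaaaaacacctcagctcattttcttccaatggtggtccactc

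Many of the 34 probes are shifted copies of each other. The 5 FGF2 probes share at least 56 of their 60 bases, as do 5 of the 6 FGF1 probes and the 5 FGFR2 probes of the kinase site, and the 5 probes of the IIIb site share at least 55. A count of probes therefore counts sites more than once, and each gene is described by its brightest probe, with its other sites beside it.

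All 7 granulosa markers measured were higher in GC over the stages, and FSHR, the follicle-stimulating hormone receptor, was well above background on 14 of 15 GC and 6 of 19 TW arrays. All 7 theca and stroma markers, all 6 endothelial, all 5 smooth muscle and pericyte and all 4 leukocyte markers were higher in TW. TEK and EMCN, endothelial genes, and MYH11, a smooth muscle myosin, were well above background on none of the 15 GC arrays. Of the same lists, PECAM1 was so on 14, VWF on 13 and ACTA2, TAGLN and RGS5 on all 15. CYP17A1, INSL3, DCN and LUM of theca and stroma were also well above background on all 15 GC arrays. CYP19A1, INHA, CDH2 and NR5A2 of granulosa were so on all 19 TW arrays, so many markers were detected in both layers. The mean level of the granulosa markers in GC ranged from 3.77 to 4.43 at ED and from 0.97 to 2.10 at PO, and FSHR, FST and HSD17B1 fell there. In whole-layer RNA, fewer cells of a type and less RNA per cell cannot be told apart. The 4 arrays of 1 slide (TW ED 4, TW LD 6, TW LD 7 and TW PO 4) scattered more, with a coefficient of variation of repeated probes of 14.8% to 22.4% against 3.21% to 5.96% elsewhere.

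In the theca wall 5 of the 8 members rose at PO. FGF2, FGF7, FGF9, FGFR1 and FGFR3 were higher at PO than at ED and than at LD, and no member was lower. In each of these comparisons 14 of the 28 member probes tested were called higher by limma (Benjamini-Hochberg adjusted p under 0.05 over all probes), beside 15.8% of all probes higher and 8.68% lower (24.5% called) for PO against ED, and 9.34% higher and 4.81% lower (14.1% called) for PO against LD. The median log2 difference of the member probes was 1.65 against ED and 1.32 against LD, beside 0.11 and 0.07 over all probes tested. No member was called between TW LD and TW ED, where 0% of all probes were called.

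**Figure D1:**
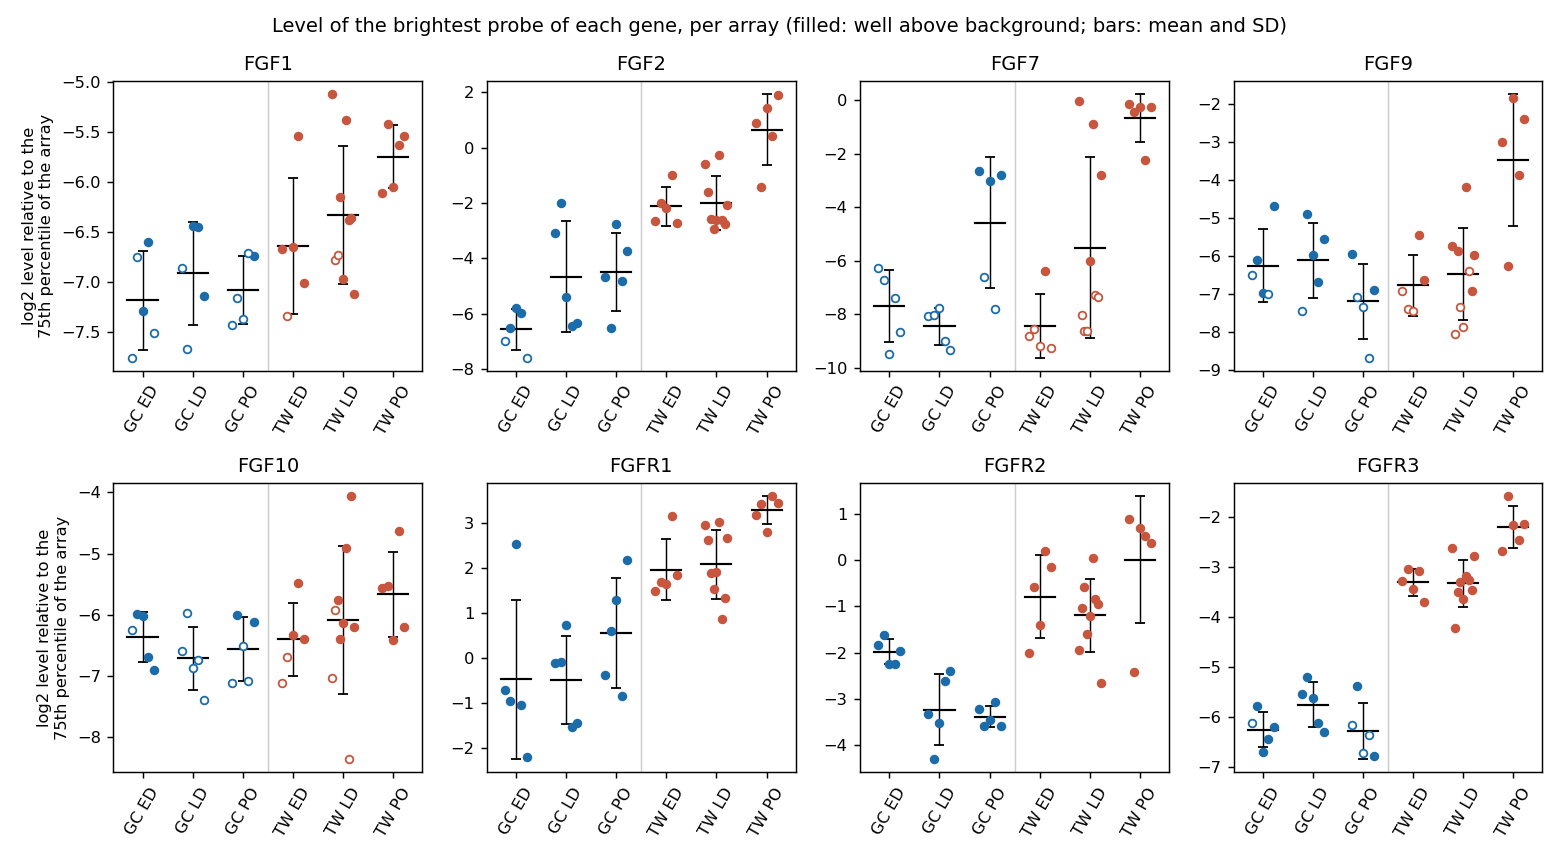
Level of the brightest probe of each gene on every array (log2 relative to the array's 75th percentile, own vertical scale per gene), by layer and stage. Filled points were well above background, open points were not, and bars give the mean and SD. Every gene has its highest mean at TW PO, and the rise there was called for FGF2, FGF7, FGF9, FGFR1 and FGFR3. FGFR2 in GC is lower at PO (-3.39) than at ED (-1.98).

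FGF7, also called keratinocyte growth factor, had the largest stage difference of the members in TW. Its brightest probe (A_69_P003946, at chr1:137751315-137751374) read -8.82, -8.57, -9.17, -6.37 and -9.25 on TW ED arrays 1 to 5, where only array 4, of the noisy slide, was well above background. On the TW PO arrays it read -0.12, -0.42, -0.26, -2.23 and -0.24, all well above background. Every TW PO array lay above every TW ED array. The difference was 7.78 ± 1.47 (SE, 5 against 5 arrays, limma adjusted p = 0.0017), a figure that is not exact because ED was mostly dim. The coding probe printed above had no TW ED array well above background, which made its level at PO at least 41.7-fold higher (adjusted p = 0.0023). The other 3 probes that overlap it gave at least 29.2-fold to 45.8-fold, and 1 of these crosses an intron, with ends 55191 bases apart. On the 5 slides that held both stages, PO lay above ED by 4.14 to 9.01.

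The TW LD arrays did not form 1 group for FGF7. They ranged from -8.63 through a median of -7.28 to -0.01, and 4 of 9 were well above background. TW LD 1, 6 and 9 read -0.01, -0.87 and -2.81, TW LD 5 read -5.99, and the rest lay at -7.28 or below. All 5 FGF7 probes put TW LD 1, 6 and 9 on top. PO exceeded LD by 4.86 ± 1.30 (5 against 9 arrays, adjusted p = 0.022), although no PO array lay beyond the highest LD array. The adjusted p became 0.081 with slide as a fixed block (4.11), and 0.055, 0.051 and 0.063 when TW PO 1, 3 or 5 was left out. Within slides PO minus LD ran from -0.11 to 8.20 and was above 0 on 4 of 5. On these 3 LD arrays the kinase probe of FGFR1 was also highest, and the endothelial marker mean read -1.37, -1.32 and -1.53, against -2.97 to -1.77 on the other 6. The smooth muscle and pericyte mean was also highest there (0.20, -0.14 and 0.09, against -1.77 to -0.32). So was the cell division mean (-1.70, -1.72 and -1.87, against -3.96 to -1.92). The leukocyte marker mean read -0.53, 0.10 and 0.03 there, within the range of all 9 (-1.13 to 0.10). The theca and stroma mean (3.58, 4.09 and 3.58) and the granulosa mean (-1.23, -1.63 and -2.77) did not put these 3 arrays on top. The part of these cells in the FGF7 values was not tested.

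In GC, FGF7 was seen at PO only on some arrays. GC PO 1, 3 and 5 read -2.65, -3.01 and -2.77 and were well above background, while GC PO 2 and 4 read -6.62 and -7.79 and were not. None of the 10 GC ED and LD arrays was well above background, with levels from -9.48 to -6.26. With 3 of 15 GC arrays well above background, FGF7 did not enter the GC test. The GC PO mean was at least 5.38-fold above GC ED and at least 4.31-fold above GC LD. With no filter on dim probes, limma gave adjusted p = 0.019 against ED and 0.021 against LD. The theca and stroma marker mean was -0.95, 0.12 and -0.74 on GC PO 1, 3 and 5 and -1.79 and -0.64 on GC PO 2 and 4, and its part in these values was not tested.

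**Figure D2:**
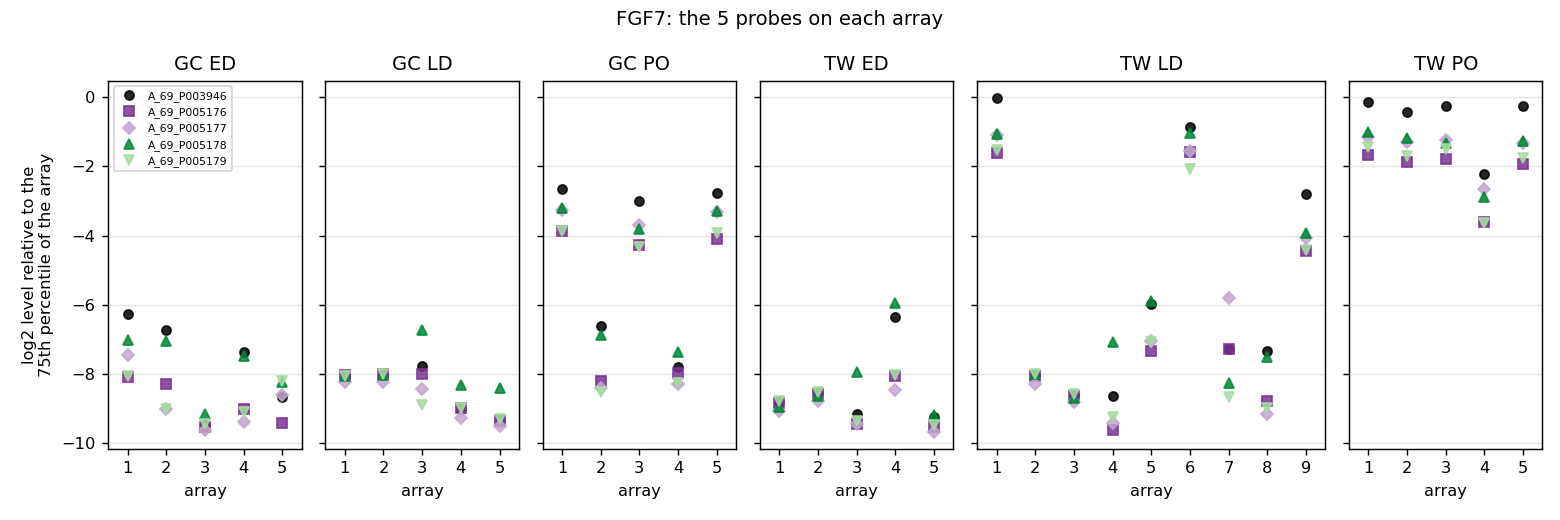
Level of the 5 FGF7 probes on each array (log2 relative to the array's 75th percentile), 1 panel per layer and stage, arrays numbered within the group. All 5 probes are high on the 5 TW PO arrays, on TW LD 1, 6 and 9 and on GC PO 1, 3 and 5, and low on the GC LD arrays.

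FGF2, basic fibroblast growth factor, rose at PO from a level already measured on every TW array. Its probe read -2.67, -2.01, -2.19, -0.99 and -2.73 on TW ED 1 to 5. At TW LD it ranged from -2.93 through -2.56 to -0.26, and at TW PO it read 0.88, -1.42, 1.45, 0.43 and 1.89. TW PO 2 lay among the ED and LD arrays, and the other 4 lay above all of them. PO exceeded ED by 2.76 ± 0.60 (6.79-fold, adjusted p = 0.0036) and LD by 2.64 ± 0.53 (6.25-fold, adjusted p = 0.0077). All 5 overlapping FGF2 probes were called in both comparisons, and PO lay above ED on each of the 5 slides that held both, by 0.59 to 4.62.

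FGF9, a ligand expressed in many developing tissues, was dim before PO. On TW ED it read -6.91, -7.39, -7.43, -5.46 and -6.62, with 2 of 5 arrays well above background, and on TW LD it ranged from -8.04 through -6.40 to -4.19, with 5 of 9. At TW PO all 5 arrays were well above background and read -3.00, -6.26, -1.84, -3.86 and -2.39. TW PO 2 again stayed within the earlier range, and the other 4 lay above it. The difference was 3.29 ± 0.76 against ED (adjusted p = 0.0051) and 3.01 ± 0.67 against LD (adjusted p = 0.011). Within slides PO lay above ED on 5 of 5, by 1.13 to 5.60, and above LD on 4 of 5 (-0.39 to 5.77). After normexp background correction it was 1.13 against ED (adjusted p = 0.13) and 0.71 against LD (adjusted p = 0.37).

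FGF1, acidic fibroblast growth factor, and FGF10 stayed near background. FGF1 in TW had means of -6.65, -6.33 and -5.75 at ED, LD and PO, with 4 of 5, 7 of 9 and 5 of 5 arrays well above background, and PO minus ED was 0.89 (95% interval 0.11 to 1.67, adjusted p = 0.086). Without the noisy slide that difference was 1.14 (adjusted p = 0.029), and without TW ED 4 alone it was 1.17 (adjusted p = 0.025). Over the 6 FGF1 probes PO minus ED ran from 0.89 to 1.76 (adjusted p from 0.059 to 0.28). The second FGF1 site (A_69_P005171) was well above background on 6 of 34 arrays. It was brightest on TW ED 4, TW LD 6 and TW PO 4 of the noisy slide (-4.67, -3.70 and -3.26). FGF10 in TW had means of -6.40, -6.08 and -5.67, and PO minus ED was 0.73 (95% interval -0.48 to 1.94, adjusted p = 0.37). Its second probe was well above background on 2 of 34 arrays and was not tested.

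The receptors FGFR1 and FGFR3 were higher in TW at PO as well. The FGFR1 kinase probe read -3.20, -2.97, -3.34, -2.14 and -3.22 on TW ED, ranged from -3.07 through -2.62 to -1.41 on TW LD, and read -1.20, -0.31, -1.01, -1.15 and -0.89 on TW PO. All 5 PO arrays lay above every earlier TW array. The rise was 2.06 ± 0.35 against ED (adjusted p = 0.001) and 1.44 ± 0.31 against LD (adjusted p = 0.01). The brighter FGFR1 probe (A_69_P107511, at chr27:6733394-6733453) rose by 1.33 ± 0.40 (adjusted p = 0.021) and 1.21 ± 0.35 (adjusted p = 0.03). Both probes were higher at PO than at ED and LD on 5 of 5 slides. In the fit of all 34 arrays the brighter probe's adjusted p was 0.14 and 0.17, and leaving out TW ED 1 made it 0.052 against ED. Against LD its call also ended with slide as a fixed block (1.15, adjusted p = 0.081) and without TW PO 1, 4 or 5 or TW LD 4, 5 or 8 (adjusted p from 0.05 to 0.082).

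FGFR3, the receptor best known for restraining bone growth, read -3.28, -3.03, -3.43, -3.07 and -3.70 on TW ED and ranged from -4.21 through -3.29 to -2.62 on TW LD. On TW PO it read -2.68, -1.57, -2.16, -2.46 and -2.13, above every ED array, and 4 of 5 lay above every LD array. The rise was 1.10 ± 0.26 against ED (2.15-fold, adjusted p = 0.0062) and 1.12 ± 0.23 against LD (2.18-fold, adjusted p = 0.0084). Within slides PO lay above ED on 5 of 5 and above LD on 4 of 5. The difference was 0.77 (adjusted p = 0.12) and 0.45 (adjusted p = 0.40) after normexp.

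FGFR2 in TW did not pass the test between stages. Its brightest probe (A_69_P105596, at chr1:10613138-10613197) had means of -0.79 ± 0.91 (SD, n = 5) at ED, -1.19 ± 0.79 (n = 9) at LD and 0.02 ± 1.38 (n = 5) at PO. The PO arrays read 0.90, -2.43, 0.69, 0.53 and 0.38, so 4 lay above all ED arrays and TW PO 2 lay below them. PO minus ED was 0.80 (95% interval -0.44 to 2.04, adjusted p = 0.34). Without TW PO 2 it was 1.41 (adjusted p = 0.039), and against LD it went from 1.21 (adjusted p = 0.12) to 1.82 (adjusted p = 0.0095).

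Markers of leukocytes and endothelium also moved with the TW PO group. The leukocyte marker mean ranged from -1.49 to -0.30 at ED, -1.13 to 0.10 at LD and 0.17 to 1.60 at PO, and 3 of 4 members (C1QB, CD68 and CD74) rose against both earlier stages. The endothelial mean ranged from -2.38 to -1.15, -2.97 to -1.32 and -1.21 to -0.57, with CDH5, PECAM1 and TEK, 3 of 6, higher at PO than at ED. The theca and stroma mean stayed between 3.43 and 3.82 at ED and between 3.54 and 3.95 at PO, and PDGFRA was the member of 7 that rose. Of the 5 smooth muscle and pericyte markers RGS5 rose against both earlier stages (list means -0.64, -0.61 and 0.11), and of the 4 cell division markers CCNB1 and MKI67 rose against LD. Their part in the FGF results was not tested.

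In GC the 1 stage difference called among the members was a fall of FGFR2. Of 17 member probes tested between GC PO and GC ED, the 2 FGFR2 probes of the downstream site were called lower and none higher, beside 21.5% of all probes called lower and 23.1% called higher (44.6% in all). The brightest read -1.84, -1.61, -2.24, -2.25 and -1.96 on GC ED and -3.22, -3.60, -3.46, -3.08 and -3.58 on GC PO. All 5 PO arrays lay below all ED arrays. The fall was -1.41 ± 0.31 (2.66-fold, adjusted p = 0.0026), and its neighbour A_69_P105597 gave -1.49 ± 0.44 (adjusted p = 0.013).

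The same probe on the GC LD arrays read -3.33, -4.31, -3.53, -2.61 and -2.40, all below the ED arrays. LD minus ED was -1.26 ± 0.31 (adjusted p = 0.18), a comparison in which 0.00307% of all probes were called. Leaving out GC LD 5 made it -1.47 (adjusted p = 0.017). The kinase site, 8.08 kilobases away, gave -0.68 ± 0.40 between PO and ED on the printed probe (adjusted p = 0.17), and none of the other 3 tested there was called. The fifth was too dim to be tested, and with no filter on dim probes it gave -1.53 (adjusted p = 0.005). PO minus LD was -0.15 ± 0.31 (adjusted p = 0.77), where 16.7% of all probes were called (7.06% higher, 9.66% lower) and no member was. On each of the 5 slides GC PO lay below GC ED, by -1.99 to -0.83. Between the same stages all 4 cell division markers measured and 3 of 7 granulosa markers fell, while ACTA2, DES and TAGLN of smooth muscle and C1QB and CD68 of leukocytes rose, and the part of other cells in the FGFR2 fall was not tested.

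The other GC stage values did not pass the test. FGF2 read -6.98, -6.50, -5.79, -5.98 and -7.58 on GC ED, -3.09, -2.01, -5.38, -6.45 and -6.35 on GC LD, and -4.68, -6.52, -2.75, -4.80 and -3.72 on GC PO. Of the PO arrays, 4 of 5 lay above every ED array. PO minus ED was 2.07 (95% interval 0.25 to 3.89, adjusted p = 0.061), and it was called in the fit of all 34 arrays (adjusted p = 0.022), without GC LD 2 (0.032) and without GC PO 2 (2.58, 0.023). The brighter FGFR1 probe read 2.52 on GC ED 3 and -0.72 or below on the other 4 ED arrays. With all of them, PO minus ED was 1.04 (adjusted p = 0.30), and without GC ED 3 it was 1.79 (adjusted p = 0.035). The FGFR1 kinase probe read -6.39 on GC ED 3, within the range of its group (-6.62 to -6.24), so the 2 FGFR1 sites disagreed on that array. FGF1, FGF9, FGF10 and FGFR3 differed between GC PO and GC ED by 0.10, -0.94, -0.19 and -0.03 (adjusted p = 0.81, 0.20, 0.64 and 0.95).

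**Figure D3:**
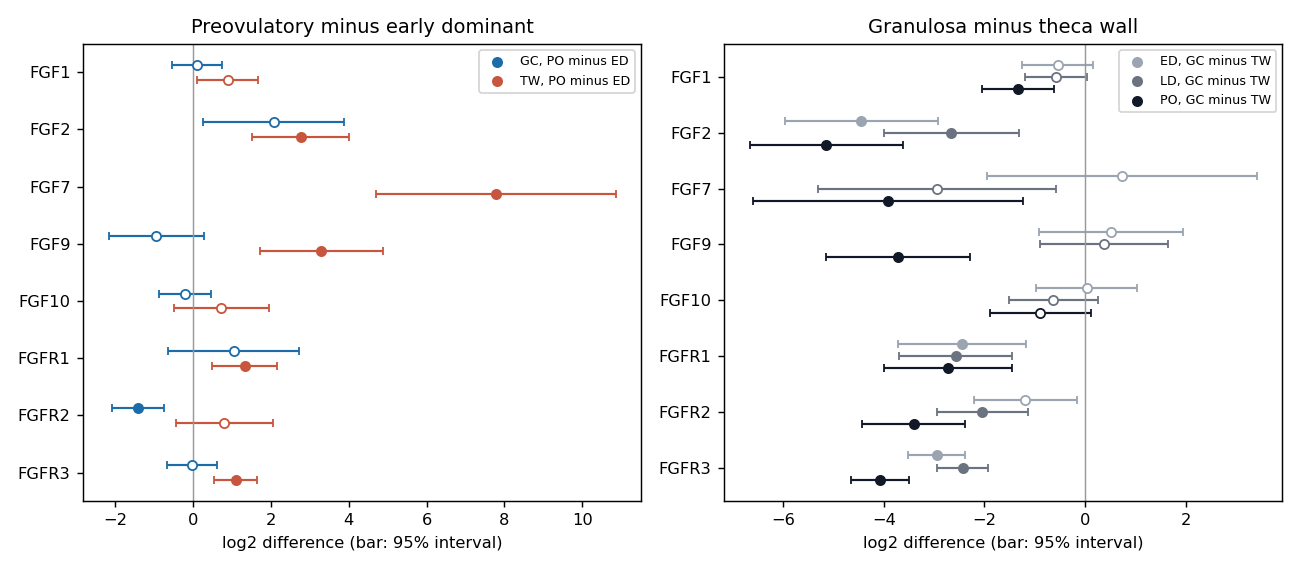
Log2 differences of the brightest probe of each gene with 95% intervals (filled: called at an adjusted p under 0.05). The left panel gives PO minus ED within GC and within TW, and FGF7 has no GC point because it was too dim to be tested there. The right panel gives GC minus TW at each stage, where FGF2, FGFR1 and FGFR3 lie below 0 at all 3 stages and FGF7 and FGF9 are called only at PO.

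Set against each other, the layers differed in most members, and each called difference was lower in GC. Over the 3 stages, 27 of 29 member probes tested were called lower in GC (7 of 8 genes, all but FGF10) and none higher, beside 32% of all probes lower and 20.4% higher (52.4% called). The median log2 difference was -2.07 for the members and -0.12 for all probes. At ED 13 of 29 were lower and at LD 15 of 29, in both cases FGF2, FGFR1, FGFR2 and FGFR3, beside 21.1% and 20.5% of all probes called lower and 13.5% and 10.4% called higher (34.5% and 30.9% in all). At PO 27 of 29 were lower, beside 30.3% of all probes lower and 18.4% higher (48.7% called), with FGF1, FGF7 and FGF9 joining. The FGF1 call at PO (-1.33) ended under quantile (-0.20, adjusted p = 0.64) and median scaling (-0.52, adjusted p = 0.17) and in the deposited table (-0.08, adjusted p = 0.59), and its direction turned after normexp (0.041).

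FGFR3 separated the layers on every array. GC ranged from -6.78 to -5.20 and TW from -4.21 to -1.57, with no overlap. GC minus TW was -3.15 ± 0.16 over the stages (8.90-fold, adjusted p = 7.0e-17). The FGFR1 kinase probe also separated them completely, with GC from -6.97 to -4.52, TW from -3.34 to -0.31 and a difference of -3.89 ± 0.21 (adjusted p = 7.3e-16). On the brighter FGFR1 probe the difference was -2.58 ± 0.35 and 12 of 15 GC arrays lay below all TW arrays. FGF2 was lower in GC by -4.08 ± 0.41 (17.0-fold, adjusted p = 6.9e-10), with 13 of 15 GC arrays below all TW arrays. FGFR2 was lower by -2.21 ± 0.28 (4.64-fold, adjusted p = 5.6e-08), with 8 of 15 beyond. At ED alone, normexp reduced the FGFR3 difference from -2.95 to -0.28 (adjusted p = 0.50) and that of the FGFR1 kinase probe from -3.42 to -0.76 (adjusted p = 0.087).

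GC minus TW for FGFR2 was -1.19 ± 0.50 at ED (adjusted p = 0.065), -2.04 ± 0.44 at LD and -3.40 ± 0.50 at PO (adjusted p = 0.00053 and 2.1e-06). The ED difference was called without TW ED 1 (-1.50, adjusted p = 0.026) or TW PO 2 (adjusted p = 0.021). At the kinase site the printed FGFR2 probe gave -1.42 at ED, -2.16 at LD and -3.07 at PO, and its ED difference turned to 0.19 after normexp, which also ended its calls at LD (-0.50, adjusted p = 0.37) and PO (-0.67, adjusted p = 0.20). FGF9 was 13.2-fold lower in GC at PO (-3.72 ± 0.70, adjusted p = 7.1e-05), while at ED and LD it was 0.52 and 0.38 higher (adjusted p = 0.62 and 0.69). Over the stages FGF9 was -0.94 (adjusted p = 0.043), a call that ended under all 4 other scalings (-0.35 to -0.10), without the filter, with either slide block, without the noisy slide and without any of 16 single arrays (adjusted p from 0.053 to 0.083). After normexp its PO difference was -0.88 (adjusted p = 0.11). FGF7 was lower in GC at PO by -3.92 ± 1.32 (adjusted p = 0.015), with 3 of 5 GC and 5 of 5 TW arrays well above background, and without GC PO 4 by -3.11 (adjusted p = 0.06). At LD, where GC was dim and 4 of 9 TW arrays were well above background, it was -2.94 (adjusted p = 0.053). It was called there without TW LD 2, 3, 4, 7 or 8 or GC PO 4 (adjusted p from 0.029 to 0.044). The filter asking for every array of a group also gave a call (adjusted p = 0.0499). FGF7 over the stages was -2.04 (adjusted p = 0.02), turned to 0.69 with slide as a fixed block and lost its call under quantile (-1.61) and median (-1.44) scaling. FGF1 over the stages was -0.82 ± 0.19 (adjusted p = 0.00062), but it was 0.08 under quantile normalization and 0.12 after normexp, so its direction depended on the scaling. FGF10 was -0.50 (95% interval -1.05 to 0.06, adjusted p = 0.13), and was called without TW LD 7 (-0.59, adjusted p = 0.033) and with slide as a fixed block (-2.03, adjusted p = 0.044).

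The 2 slides with both layers each held 1 LD array of either kind. GC minus TW on these was -1.50 and -3.69 for FGF2, -2.73 and -2.87 for the brighter FGFR1 probe, -2.29 and -1.66 for FGFR2 and -1.32 and -2.65 for FGFR3. For FGF7 it was -0.03 and -1.67, with none of the 4 arrays well above background, and for FGF9 it was 0.60 and 0.23. With slide as a fixed block, a fit in which only those 2 slides link the layers, 16 member probes were lower in GC over the stages, 6 at ED, 8 at LD and 16 at PO. Among the brightest probes that fit ended the calls of FGF2 (-2.57, adjusted p = 0.14) and FGFR2 (-2.10, adjusted p = 0.059) at LD, and of FGF1 (-0.98, adjusted p = 0.24), FGF7 (-0.94, adjusted p = 0.80) and FGF9 (-3.00, adjusted p = 0.071) at PO.

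The junction into exon IIIb of FGFR2, the exon that gives the receptor its affinity for FGF7 and FGF10, gave little signal in either layer. Any of its 5 probes was well above background on 6 of 34 arrays, against 31 for the kinase site and 34 for the brightest downstream probe. The printed probe read -5.49 on GC ED 1, -4.77 on GC LD 1, -6.70 on GC PO 2 and -6.13 on TW LD 7, and was also well above background on TW PO 4. On the rest it was not well above background, and those 2 TW arrays belong to the noisy slide. GC minus TW for this probe was 0.16 ± 0.40 over the stages (adjusted p = 0.76), and the other 4 probes of the site were too dim to be tested. A dim probe shows only that its signal was not detectable here, since probes differ in brightness.

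**Figure D4:**
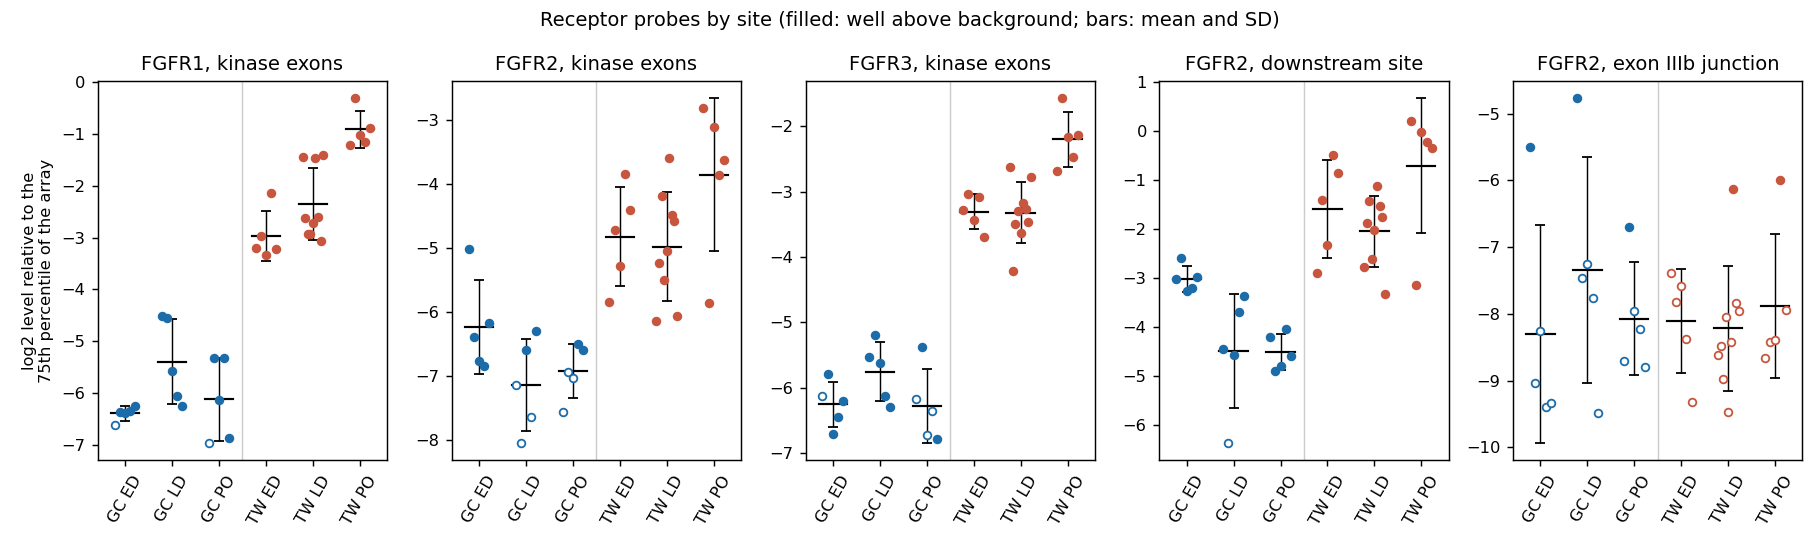
Level of receptor probes by site (log2 relative to the array's 75th percentile, own vertical scale per probe), with the mean and SD of each group. The FGFR1 and FGFR3 kinase probes separate all GC from all TW arrays, and the probe at the FGFR2 exon IIIb junction is mostly open points, not well above background, in both layers.

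The change from ED to PO differed between the layers for 4 members. In the test of this difference 7 of 29 member probes were called, all lower in GC, beside 15.9% of all probes called lower and 12.7% higher (28.6% called). For FGF9 the GC change was smaller than the TW change by -4.23 ± 1.00 (adjusted p = 0.0024). For FGFR2 it was -2.21 ± 0.71 (adjusted p = 0.02), and 4 of its 8 tested probes were called. For FGFR3 it was -1.13 ± 0.40 (adjusted p = 0.032) and for the FGFR1 kinase probe -1.79 ± 0.54 (adjusted p = 0.014). The brighter FGFR1 probe gave -0.29 ± 0.88 (adjusted p = 0.84), so the FGFR1 sites disagreed. FGF7 gave -4.65 ± 1.86 (adjusted p = 0.059). It was called without the noisy slide (-5.56, adjusted p = 0.025) and after normexp (-2.83, adjusted p = 0.0098). The deposited table (-2.76, adjusted p = 0.049) and slide as a random block (adjusted p = 0.048) gave a call too. Leaving out GC ED 3, GC PO 1, TW ED 4, TW LD 1 or TW LD 6 also did (adjusted p 0.033 to 0.048). FGF2 gave -0.69 with a 95% interval of -2.84 to 1.46 (adjusted p = 0.66), and was called after normexp (-2.15, adjusted p = 0.027). The FGFR3 call ended under median centring (-0.83, adjusted p = 0.081) and after normexp (-1.09, adjusted p = 0.078), FGFR2's under quantile normalization (-1.99, adjusted p = 0.059) and FGF9's after normexp (-1.51, adjusted p = 0.066). FGFR3's call also ended without GC ED 2, GC PO 3, GC PO 5, TW ED 3, TW ED 5 or TW PO 2 (adjusted p from 0.051 to 0.066).

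The remaining genes of the pathway were read from lists of ligands, receptors with their partners, signal transducers, feedback inhibitors with targets, and heparan sulfate genes, each gene by its brightest probe. Some feedback inhibitors of FGF signalling were higher in both layers at PO than at ED. DUSP5, SPRY1, SPRY2 and IL17RD, 4 of 11 tested, were higher at TW PO than at TW ED and none was lower (list median 0.89, all probes 0.11), beside 15.8% of all probes higher and 8.68% lower. In GC, DUSP5, SPRY1 and SPRY2, 3 of 7, were higher at PO than at ED and none was lower (list median 1.82, all probes 0.08), beside 23.1% higher and 21.5% lower. Against LD, DUSP5, SPRY1 and SPRY2 were higher at TW PO, 3 of 11, beside 9.34% higher and 4.81% lower. In GC 0 of 7 were higher at PO than at LD and SPRED1 was lower, beside 7.06% higher and 9.66% lower. SPRY1, a sprouty protein that damps receptor signalling, rose by 2.96 ± 0.52 in GC (7.77-fold, adjusted p = 0.00059) and 1.22 ± 0.26 in TW (adjusted p = 0.0032). SPRY2 rose by 1.99 ± 0.75 (adjusted p = 0.042) and 1.56 ± 0.33 (adjusted p = 0.003).

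Between the layers, 7 of 12 feedback and target genes were lower in GC and SPRY2 alone was higher, beside 32% of all probes lower and 20.4% higher. DUSP6, a phosphatase that switches off the kinase ERK, was lower in GC by -4.89 ± 0.32 (29.7-fold, adjusted p = 3.7e-14). ETV1, a transcription factor downstream of FGF receptors, was lower by -3.80 ± 0.26 (13.9-fold, adjusted p = 1.2e-13). All 15 GC arrays lay below all TW arrays for both. SPRY2 was higher in GC by 2.71 ± 0.32 (6.57-fold, adjusted p = 1.2e-08).

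Heparan sulfate genes moved in both directions. At PO against ED, 4 of 17 rose and 7 fell in GC, beside 23.1% of all probes higher and 21.5% lower. In TW 6 of 17 rose and 3 fell, beside 15.8% higher and 8.68% lower. The syndecans SDC4 and SDC3, cell surface carriers of heparan sulfate, rose in GC by 4.76 ± 0.77 and 5.25 ± 0.85 (27.1-fold and 38.0-fold, adjusted p = 0.00037 and 0.00039). In TW they rose by 3.12 ± 0.57 and 3.12 ± 0.60 (adjusted p = 0.0015 and 0.0018). The glypican GPC3 fell in GC by -3.64 ± 0.92 (adjusted p = 0.0057) and in TW by -1.56 ± 0.25 (adjusted p = 0.00079). Between the layers over the stages, 7 of 17 were higher and 5 lower in GC, beside 20.4% and 32% of all probes. SULF2, an enzyme that trims sulfate groups from these chains, was 39.9-fold lower in GC than in TW (-5.32 ± 0.37, adjusted p = 1.9e-13). SULF1 was among the 7 called higher in GC.

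Among other receptors and partners, 1 of 8 was higher and 3 were lower in GC over the stages, near the 20.4% and 32% of all probes. FGFR4 was lower in GC by -4.08 ± 0.29 (16.9-fold, adjusted p = 1.6e-13) with all 15 arrays below TW. NCAM1, a cell adhesion molecule that binds FGF receptors, was lower by -4.62 ± 0.27 (adjusted p = 7.1e-15). FGFBP3, a protein that binds FGFs, was higher by 3.24 ± 0.31 (9.43-fold, adjusted p = 1.4e-10). At PO against ED, 1 of 8 was higher (FLRT1) and 2 were lower (FLRT2 and NCAM1) in GC, beside 23.1% and 21.5% of all probes. In TW 1 of 7 was higher (FLRT3) and the same 2 were lower, beside 15.8% and 8.68%. FLRT2, a membrane protein that can bind FGF receptors, fell between ED and PO by -5.34 ± 0.80 in GC (40.5-fold, adjusted p = 0.00028) and by -2.12 ± 0.44 in TW (adjusted p = 0.0027).

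Of the 16 ligands on the array outside the 8 members, 8 were bright enough to be tested over the stages, and 2 of these were higher and 2 lower in GC, beside 20.4% and 32% of all probes. FGF12 and FGF14 were 5.01-fold and 2.84-fold higher in GC (adjusted p = 2.9e-08 and 0.018), and FGF13 and FGF11 were lower by -2.07 ± 0.26 and -1.51 ± 0.21 (adjusted p = 5.5e-08 and 3.4e-07). These 4 are the intracellular FGF homologous factors, usually held not to act through the receptors. In GC, FGF6, FGF13 and FGF16 were higher and FGF4 was lower at PO than at ED, 4 of 8 tested beside 44.6% of all probes called, and FGF6 was higher at PO than at LD. None of the 7 other ligands tested in TW was called between PO and ED or LD. Of the signal transducers, 5 of 15 rose and 1 fell at GC PO against ED, beside 23.1% and 21.5% of all probes. In TW 2 of 16 rose and 2 fell, beside 15.8% and 8.68%. FRS3, an adaptor that docks on FGF receptors, fell by -2.42 ± 0.41 in GC (adjusted p = 0.00048) and -1.07 ± 0.34 in TW (adjusted p = 0.027). MAP2K1, a kinase upstream of ERK, was higher in GC than in TW by 1.35 ± 0.10 (adjusted p = 4.5e-13), and MAPK3, which encodes ERK1, was lower by -1.38 ± 0.17 (adjusted p = 6.0e-08). HRAS, a small GTPase, rose by 1.01 in GC and fell by 0.91 in TW between ED and PO (adjusted p = 0.029 and 0.013), and the test of that difference gave 1.92 ± 0.42 (adjusted p = 0.0013).

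The genes whose 6 group means ran closest to each member were found among 10401 named genes by the root mean square (RMS) difference of centred means, in log2 units. For FGFR3 they were NRP2, a co-receptor of vascular growth factors, and CALCRL, a receptor of vessel-active peptides, at 0.17 each. For FGF2 they were FCER1A, a chain of the IgE receptor, and DYRK3, a protein kinase, at 0.32 and 0.36. For FGF7 they were TAC1, the precursor of substance P, at 0.85, and SAA1, an acute-phase protein, at 0.90. The faintest signal well above background averaged -7.00, -6.68 and -6.83 over the GC arrays at ED, LD and PO. NRP2, CALCRL and FCER1A had GC means below this at every stage, DYRK3 and TAC1 at ED and LD, and SAA1 at ED. Over the TW arrays the same average was -7.04 at ED, where TAC1 (-7.14) and SAA1 (-7.98) also lay below it. Those parts of their patterns lay near the floor.

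For FGF9 they were RETN, the gene of resistin, and GALR2, a galanin receptor, at 0.30 and 0.35. For FGFR1 they were SKAP2, an adaptor protein, and ELOVL7, a fatty acid elongase, at 0.18 and 0.23. For FGFR2 they were ATP2A3, a calcium pump, and LAG3, an inhibitory receptor of lymphocytes, at 0.25 and 0.26. RETN and LAG3 also had GC means near the floor at every stage, SKAP2 at ED and LD, and ATP2A3 at PO (-7.04). In TW, RETN lay below the floor at ED (-7.93) and at LD (-7.66, floor -7.00). For FGF1, a dim probe, they were KCNF1, a potassium channel subunit, and SLAMF7, a leukocyte receptor, at 0.06 and 0.07.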

How the data were processed

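Per the labels' protocols, RNA of good integrity was amplified from an oligo(dT) primer, so the copies favour the 3′ end, and carried Cy3. The deposited spot intensity values were written by Agilent Feature Extraction 9.5.3.1 per the file headers (9.1 in the submitters' processing notes), background already subtracted and arrays not yet scaled to each other. The deposited table of log2 values, whose processing is not stated, was an alternative. Well above background were 64.3% to 82.5% of an array's spots. The number of arrays limits the precision.

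Each array's 75th percentile was taken off the log2 processed signal after control and outlier-flagged spots were left out, and spots of a probe were averaged. A probe entered a test when at least 5 arrays of that fit had it well above background. limma 3.58.1 (lmFit and eBayes, R 4.3.3) compared stages within a layer, and layers on all 34 arrays, with a call at a Benjamini-Hochberg adjusted p below 0.05. The script was tested on simulated data. The 8 members, the gene lists and the tests were chosen with earlier results of these data known. The text names every member, up to 4 called genes per pathway list by largest change, and the 2 most similar genes per member called on its brightest probe. Other pathway and marker genes, named to spell out small counts, were chosen after their values were seen. Names came from the files and RefSeq's table of assembly TB-T2T, and 22614 of 43603 probes had a symbol. An "at least" fold puts the bright group's mean over the dim group's mean, where a dim array counts with its own value or its faintest signal well above background, whichever is higher. Alternatives were quantile, median and normexp processing, the deposited table, other filters, slide blocks, all 34 arrays in 1 fit, 1 probe per name, and leaving out the noisy slide or single arrays. All 9 TW LD arrays were used, since the labels do not say which 5 the design text means. The sequence of 1 receptor probe is not reported here.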

Additional observations from a re-analysis of the deposited data

Results flagged for a closer look

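Of 47 groups examined, 3 held an array that stood apart by Dixon's criterion, which chance meets in about 1 of 20 groups. FGF7 read -2.23 on TW PO 4, with the other TW PO arrays at -0.42 or above, and that array belongs to the noisy slide. The brighter FGFR1 probe read 3.14 on TW ED 4, of the same slide, with the next at 1.85. FGFR2 read -2.43 on TW PO 2, with the next at 0.38.

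The change from ED to PO differed between GC and TW in the test of that difference for FGF9 (-4.23), FGFR2 (-2.21), FGFR3 (-1.13) and the FGFR1 kinase probe (-1.79), each given as the GC change minus the TW change on the log2 scale.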

How the results depend on the processing

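The counts of member probes called moved by over 1.5 times under the following alternatives. With 1 probe per file name (8 or 9 members tested), the calls were 1 for GC PO versus ED, 5 for TW PO versus LD and 5 versus ED, 8 for GC versus TW, 4 at ED, 5 at LD, 8 at PO and 3 for the difference in stage change. Normexp gave 8 for TW PO versus LD, 11 for GC versus TW, 3 at ED, 7 at LD, 15 at PO and 13 for the difference in change. Slide as a fixed block gave 8 for TW PO versus LD, 16 for GC versus TW, 6 at ED, 8 at LD and 16 at PO. Quantile normalization, median centring and the deposited table each gave 8 at ED, and quantile gave 4 for the difference in change, which was 12 without the noisy slide. With no filter, GC PO had 5 calls versus LD and 8 versus ED. In the fit of all 34 arrays these were 2 and 13. Leaving out 1 array gave ranges of 0 to 2 (GC LD versus ED), 0 to 0 (GC PO versus LD), 2 to 8 (GC PO versus ED), 0 to 0 (TW LD versus ED), 8 to 21 (TW PO versus LD), 13 to 21 (TW PO versus ED), 25 to 28 (GC versus TW), 10 to 16 (ED), 15 to 18 (LD), 25 to 27 (PO) and 6 to 10 (difference in change).

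Against the main scaling, the median of all probes in GC minus TW moved by 0.22 under quantile normalization, 0.60 under median centring, 0.24 after normexp and 0.24 in the deposited table, and the higher share of called probes went from 38.9% to 56.2%, 74.3%, 52.0% and 61.2%. In TW PO minus ED that share went from 64.5% to 48.1% (quantile), 35.8% (median centring) and 41.6% (deposited table). Directions reversed for FGF1 over the stages after normexp (0.14, 0.12, 0.13, 0.15, 0.17 and 0.073 for its 6 probes) and on its brightest probe under quantile normalization (0.077). At PO they reversed after normexp (0.072, 0.041, 0.070, 0.10, 0.11 and 0.0057). FGF7 over the stages reversed with slide as a fixed block (0.69, 0.69, 1.09, 0.65 and 0.53), and 4 FGFR2 kinase probes at ED after normexp (0.12, 0.19, 0.17 and 0.20). The cause was not tested. No paired analysis was possible because the replicate numbers follow accession order and pair no samples.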

Other observations

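TW PO 2 stood low in FGF2 (-1.42), FGF9 (-6.26) and FGFR2 (-2.43), and high in FGFR3 (-1.57) and the FGFR1 kinase probe (-0.31), where it was the highest TW PO array. Its FGF7 level was -0.42, close to the other TW PO arrays. The same array had the lowest leukocyte marker mean (0.17) and the lowest endothelial marker mean (-1.21, with TW PO 1 at -1.15) of the TW PO group. Its granulosa marker mean (-0.98) was the highest of that group. The theca and stroma (3.56), smooth muscle and pericyte (0.43) and cell division (-1.46) means lay within the range of the other TW PO arrays. The part of these cells in its FGF values was not tested.

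GC LD arrays 1 and 2 read -3.09 and -2.01 for FGF2 and -4.52 and -4.55 for the FGFR1 kinase probe, and were the highest GC LD arrays for both. Their smooth muscle and pericyte marker means were -3.32 and -3.17, against -5.72 to -4.17 on the other 3. Other marker means differed between GC LD 1 and 2. Theca and stroma read 1.27 and -1.09, endothelium -5.78 and -7.54, and leukocytes -2.68 and -5.98. No test was made of these arrays, which were chosen after their values were seen.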
